A study of Rattus norvegicus with 40 samples.

Results

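The hypoxia-inducible factor subunit Hif1a was followed together with the oxygen-dependent hydroxylases Hif1an, Egln1, Egln2, Egln3, P4ha1, P4ha2, Plod1, Plod2 and Kdm3a in cultured neonatal rat ventricular myocytes under ischemia. Every probe set whose platform symbol was one of these 10 genes was taken, which gave 11 of the 31042 probe sets on the array. They covered 9 of the 10 genes, out of 14217 genes with a probe set of their own, since no probe set carried the symbol or gene ID of Hif1an, which encodes the asparaginyl hydroxylase of HIF. Of the 11, 10 passed the filter on dim probe sets and were among the 18625 that were tested. The second Egln1 probe set, 1375262_at, lay at the floor of the scale on all but 2 of the 40 arrays and was not tested.

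As background, the enzymes in this group use molecular oxygen, 2-oxoglutarate and iron to hydroxylate proteins or, in the case of Kdm3a, to demethylate histone lysines. When oxygen is present, the Egln prolyl hydroxylases mark the HIF alpha subunits for degradation by the VHL ubiquitin ligase, and Hif1an blocks their binding to coactivators. When oxygen is short, HIF accumulates as protein and raises transcription of its targets, among which are Egln1, Egln3, P4ha1, P4ha2, Plod1, Plod2 and Kdm3a. The P4ha and Plod enzymes hydroxylate prolines and lysines of newly made collagen, which the heart's interstitial cells secrete.

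Total RNA was measured on 40 Affymetrix arrays in 10 groups. In the ischemia+reperfusion arm and in the ischemia arm, cells were taken at labelled times of 0, 10, 30, 60 and 120 min, with 4 arrays per group from 2 cell preparations, each in duplicate. Ischemia was made by coverslip hypoxia, in which a glass coverslip over the monolayer limits its exchange of oxygen and medium. The labels give no age beyond neonatal, and leave unsaid whether duplicates were separate cultures, what the minutes count and the length of reperfusion, so p-values measure the spread between these samples, which may be technical. In such bulk RNA, a change in the share of a cell type and a change in RNA per cell cannot be told apart.

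The table held probe set intensities with array medians from 101 to 171. They were quantile-normalized, set to 0 where negative and expressed as log2(intensity + 16), called the log2 level here, on which the floor is 4. Markers of cardiomyocytes were bright, with Tnnt2 at log2 levels from 13.37 to 13.61 over the 40 arrays, and those of fibroblasts were bright too, with Col1a2 at 13.10 to 13.41. Thy1, another fibroblast marker, was dimmer, at 7.94 to 9.16. The endothelial marker Vwf and the macrophage marker Aif1 reached the floor on some arrays. Other markers of these cells did not, with the endothelial Kdr at 9.59 to 10.27 and the macrophage and leukocyte marker Cd14 at 9.82 to 11.03. There were 5 doubtful arrays. The outlying ischemia array at 0 min, preparation 1, duplicate 1, stood apart, its correlations with the others having a median of 0.872, where every other array had 0.960 to 0.979. At 120 min, the heat shock gene Hspa1a was at 9.75 on the ischemia+reperfusion array of preparation 2, duplicate 1, against 12.996 to 13.25 on the other arrays of its group, and at 13.15 on the ischemia array of preparation 2, duplicate 2, against 9.62 to 10.19. By correlation of centred values, duplicate 1 of preparation 2 at 10 min of ischemia+reperfusion resembled the 0 min arrays of that arm (0.429) more than its own group (0.112), and at 30 min the same duplicate resembled the 60 min arrays (0.336) more than its own group (0.138). In all, 21 of the 40 arrays lay nearer to another group than to their own by this measure. All arrays were kept under their labels.

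RefSeq promoter windows of 300 bases (build GRCr8, mostly upstream of the listed transcript start and running just past it) were found for all 10 genes. They were searched on both strands for ACGTG and GCGTG, the core letters of the hypoxia response element to which HIF binds. Of 33469 rat windows of this length, 19.3% held ACGTG, 29.7% held GCGTG and 41.6% held either. There were 5 matches in the window of P4ha2, 4 in Plod2, 3 in P4ha1 and Hif1a, 2 in Egln1 and 1 in Plod1. Kdm3a had 1 match in 1 of its 2 windows, and the windows of Hif1an, Egln2 and Egln3 held none, which says only that these letters are not in them. The windows of 4 genes are shown 5′ to 3′ with matches in capitals: P4ha1 and P4ha2, which passed the test in both arms, Egln3, which had the largest early change of the tested probe sets in ischemia+reperfusion, and Hif1a, whose level lay between 11.81 and 12.28 on all arrays but 1. They lie at chr20:27844796-27845095 (plus strand), chr10:38743644-38743943 (plus strand), chr6:77410966-77411265 (minus strand) and chr6:98359648-98359947 (plus strand). The P4ha1 window lies inside the listed span of its gene, which starts at 27784696. Plod1 and Plod2 also passed in both arms at 120 min, and their windows are not shown. The first capitals of Hif1a are 2 matches that overlap, 1 on each strand. A match is a description of letters and does not show a binding site.
P4ha1: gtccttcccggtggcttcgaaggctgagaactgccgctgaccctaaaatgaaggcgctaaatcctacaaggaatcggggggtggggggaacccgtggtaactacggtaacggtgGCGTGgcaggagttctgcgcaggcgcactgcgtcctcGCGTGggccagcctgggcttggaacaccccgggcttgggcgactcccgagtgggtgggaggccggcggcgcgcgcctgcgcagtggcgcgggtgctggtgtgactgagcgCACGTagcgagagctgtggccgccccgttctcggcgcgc
P4ha2: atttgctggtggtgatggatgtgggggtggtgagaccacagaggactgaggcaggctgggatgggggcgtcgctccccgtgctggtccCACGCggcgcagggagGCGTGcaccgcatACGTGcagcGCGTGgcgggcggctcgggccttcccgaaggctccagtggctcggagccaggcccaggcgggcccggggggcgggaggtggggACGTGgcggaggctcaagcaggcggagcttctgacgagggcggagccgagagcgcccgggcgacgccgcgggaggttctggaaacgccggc
Egln3: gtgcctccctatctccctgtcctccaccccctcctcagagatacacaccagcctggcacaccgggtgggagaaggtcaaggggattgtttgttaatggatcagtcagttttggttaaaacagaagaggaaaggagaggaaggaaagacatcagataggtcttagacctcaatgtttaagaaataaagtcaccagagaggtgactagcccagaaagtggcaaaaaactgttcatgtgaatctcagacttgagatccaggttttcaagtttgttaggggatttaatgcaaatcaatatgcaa
Hif1a: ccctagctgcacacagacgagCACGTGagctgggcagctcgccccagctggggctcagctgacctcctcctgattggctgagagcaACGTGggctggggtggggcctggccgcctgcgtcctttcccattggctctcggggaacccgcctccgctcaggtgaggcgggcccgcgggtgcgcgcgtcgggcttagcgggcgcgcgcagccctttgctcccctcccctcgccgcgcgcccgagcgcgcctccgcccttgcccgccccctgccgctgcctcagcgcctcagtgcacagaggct

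Of the 9 measured genes, 7 had positive fitted changes at 10 to 120 min against 0 min in both arms, from 0.22 (Plod2) to 1.05 (Egln3) log2 units, and between 0 and 6 of the 10 probe sets passed the test at a given time. These were the HIF prolyl hydroxylases Egln1 and Egln3, the catalytic subunits P4ha1 and P4ha2 of collagen prolyl 4-hydroxylase, the lysyl hydroxylases Plod1 and Plod2 and the histone demethylase Kdm3a. The changes were already of this size at 10 min, and the differences between 120 and 10 min, from -0.27 to 0.37 among these genes, did not pass. Egln2 had estimates on both sides of 0, and Hif1a, with 1 array at the floor, passed in no comparison.

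**Figure D1:**
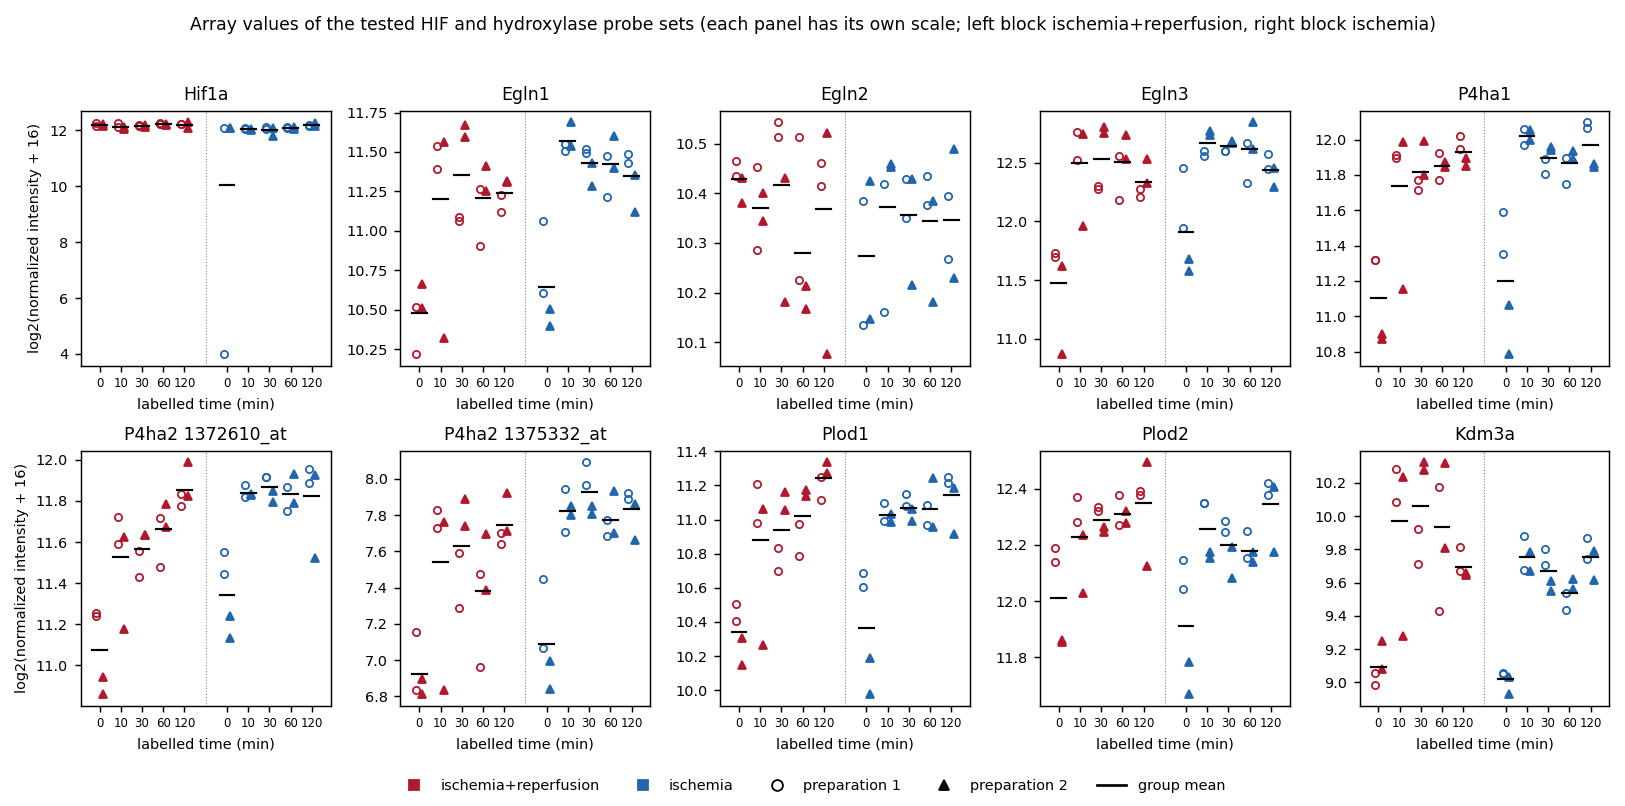
Log2 levels of the 10 tested probe sets on every array, by labelled time in minutes, with ischemia+reperfusion in the left block and ischemia in the right block of each panel. Open circles are preparation 1, filled triangles preparation 2 and bars the group means; P4ha2 has 2 panels, 1 for each probe set. In most panels most later arrays lie above every 0 min array of their arm, but all of them do so in both blocks only for Kdm3a. Egln2 shows no such shift, and Hif1a has 1 array at the floor of 4.

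In ischemia+reperfusion at 120 min against 0 min, 6 of the 10 tested probe sets, from 5 genes, were called higher by limma at an adjusted p under 0.05, and 0 lower. They were Egln3, P4ha1, both P4ha2 probe sets, Plod1 and Plod2. Over all probe sets tested, 3.5% were called higher and 3.68% lower in this comparison. Egln1 (adjusted p = 0.0524) and Kdm3a (0.0510) missed the threshold, and of 8 fits that each left out 1 array, Egln1 passed in 3 and Kdm3a in 4. At 60 min, 4 were called higher (Egln3, P4ha1, the P4ha2 probe set 1372610_at and Kdm3a), where 2.19% of all probe sets were called higher and 2.5% lower. At 30 min only Kdm3a was called, where 0.408% of all were called higher and 0.376% lower. At 10 min the count was 0, where 0.0215% of all were called higher and 0.0161% lower. At an unadjusted p under 0.05 there were 8 of the 10 members at 10 min, and 11.3% of all probe sets. With arrays as samples and an estimated correlation of duplicates, 5 passed at 10 min, where 1.04% of all were called higher and 0.827% lower.

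The 10 min count in this arm turned on a single array. On the array of preparation 2, duplicate 1, Egln1 was at 10.32, against 11.39 to 11.56 on the other arrays of the group, and P4ha1 was at 11.15, against 11.89 to 11.98. Without this array, 6 of the 10 probe sets were called at 10 min (Egln1, Egln3, P4ha1, both P4ha2 and Kdm3a), where 1.18% of all probe sets were called higher. Leaving out an array marked for its likeness to the 0 min arrays favours a larger change by construction. Without all 5 doubtful arrays the count was 7, with Kdm3a at a change of 1.12 and an adjusted p of 0.0063. Of the 18625 probe sets, 227 were then called higher. At 60 min, 7 were called without the array of preparation 1, duplicate 2, and 1 without its partner, duplicate 1. Of all probe sets, 3.37% and 1.73% were called higher in these fits.

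In ischemia at 120 min against 0 min, 6 of the 10, again from 5 genes, were called higher: P4ha1, both P4ha2 probe sets, Plod1, Plod2 and Kdm3a. Of all probe sets tested, 6.45% were called higher and 6.48% lower. Egln1 missed the threshold (adjusted p = 0.0504) but passed in 4 of the 8 fits that each left out 1 array, and Egln3 did not pass (0.134). At 10 min, P4ha1 and Kdm3a were called, where 1.14% of all were called higher and 0.838% lower. At 30 min the count was 0, where 0.0698% of all were called higher and 0.0268% lower, and at 60 min it was 0 too, where 0.0859% of all were called higher and 0.043% lower. At an unadjusted p under 0.05 there were 9 of the 10 members at each of these times, against 15.6% of all probe sets at 30 min and 15.8% at 60 min. The 9 include Hif1a, whose change rested on the array at the floor and was -0.066 at 30 min and 0.0038 at 60 min without it. With arrays as samples, 8 passed at 30 min, where 0.999% of all were called higher and 0.532% lower, and 5 at 60 min, where 1.02% were higher and 0.564% lower. Each of the 4 comparisons of an arm shares the same 4 arrays at 0 min.

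The 10 min count in ischemia was not firm. It fell to 0 without the outlying 0 min array (preparation 1, duplicate 1) and to 0 without the preparation block. Of all probe sets, 128 and 95 were then called higher, against 212 in the main fit. Of the other 0 min arrays, leaving out duplicate 2 of preparation 1 gave 6 members, duplicate 1 of preparation 2 gave 4, and duplicate 2 of preparation 2 gave 1. The shares of all probe sets called higher in these fits were 1.64%, 1.91% and 1.28%. Of the 10 min arrays of preparation 2, leaving out duplicate 1 gave 4 members and leaving out duplicate 2 gave 1. Here 1.99% and 0.462% of all probe sets were called higher. The count at 120 min stayed between 5 and 7 whichever array of its groups was left out, and it was 6 without the outlying 0 min array and 7 without all 5 doubtful arrays. On the deposited scale, where the median of all probe sets fell by 0.22 log2 units and 271 were called higher against 3143 lower, P4ha1 alone passed at 120 min (0.58, adjusted p = 0.0372).

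The split of all calls into higher and lower depended on the scale at several times. With arrays centred on their medians, 468 were higher and 1205 lower at 120 min of ischemia+reperfusion, against 651 and 685 after quantile normalization, and 285 and 790 at 60 min, against 407 and 466. On the deposited scale there were 91 and 66 at 60 min of ischemia+reperfusion, and P4ha2 1372610_at alone of the members passed at 120 min (0.61, adjusted p = 0.0490), where the median of all probe sets fell by 0.12. The members' changes other than those of Hif1a and Egln2 were positive under every scaling.

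**Figure D2:**
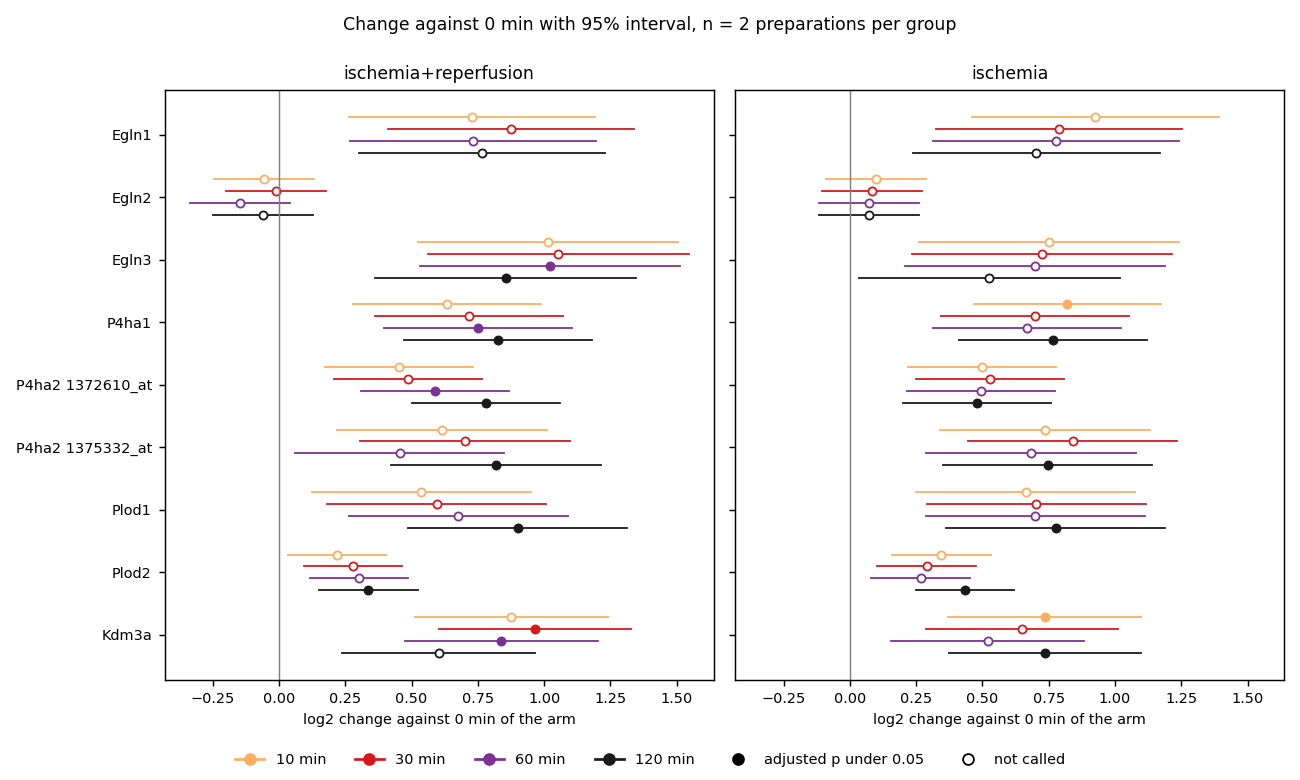
Log2 change against 0 min of the same arm, with its 95% interval, for each tested probe set except Hif1a, which has 1 array at the floor, at 10, 30, 60 and 120 min, in ischemia+reperfusion (left) and ischemia (right). Filled points passed an adjusted p of 0.05; all intervals lie above 0 save those of Egln2, which all include 0.

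The mean of 10, 30 and 60 min puts 12 arrays beside the 4 at 0 min. In ischemia+reperfusion, 5 probe sets were called higher (Egln1, Egln3, P4ha1, P4ha2 1372610_at and Kdm3a), against 1.64% of all probe sets higher and 1.56% lower. In ischemia, 6 were called higher (Egln1, P4ha1, both P4ha2, Plod1 and Kdm3a), against 1.12% of all higher and 0.644% lower. The count in ischemia was 0 without the outlying 0 min array, 2 when duplicate 1 of preparation 1 at 60 min was left out, and 3 without the preparation block. In these fits 76, 122 and 87 of all probe sets were called higher, against 209 in the main fit. With that outlying array left out, the adjusted p was 0.0542 for P4ha1 and 0.0533 for Kdm3a and Plod1, with changes of 0.67 for P4ha1, 0.64 for Kdm3a and 0.71 for Plod1, against 0.73, 0.63 and 0.69 with all arrays. In ischemia+reperfusion, leaving out duplicate 2 of preparation 2 at 10 min gave 0, and leaving out duplicate 1 of preparation 1 at 60 min gave 3. Of all probe sets, 0.435% and 0.923% were then called higher. Plod1 in ischemia passed in only 5 of the 16 fits that each left out 1 array. In ischemia+reperfusion, leaving out any 1 of 3 arrays gave 8, namely duplicate 1 of preparation 1 at 0 min, duplicate 1 of preparation 2 at 10 min and duplicate 2 of preparation 1 at 60 min. Of all probe sets, 2.07%, 2.47% and 1.92% were called higher in these fits.

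Over the 10 tested probe sets, the median change against 0 min was 0.58, 0.65, 0.63 and 0.77 log2 units at 10, 30, 60 and 120 min of ischemia+reperfusion. In ischemia it was 0.74, 0.70, 0.68 and 0.72 at the same times. These ischemia medians include Hif1a, whose changes of 1.95 to 2.13 rested on the array at the floor. However large, 1 value of 10 can lift a median only from a middle value of the set towards the next. In ischemia+reperfusion the change of Hif1a lay below each median. Medians without Hif1a were not computed. The median of all probe sets tested lay between -0.021 and 0.0035 in these 8 comparisons. Counted by arrays, Egln3 and Kdm3a had all 16 later ischemia+reperfusion arrays above all 4 arrays at 0 min, as had 0.66% of all probe sets. In ischemia this held for Egln1, P4ha1, P4ha2 1375332_at, Plod1 and Kdm3a, and for 0.956% of all. Without the 5 doubtful arrays it held for 6 members in ischemia+reperfusion, where 1.78% of all did so, and for 6 in ischemia, where 1.93% did so. Leaving out arrays, among them the 10 min array that resembled 0 min, eases such separation by construction.

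Hif1a encodes the oxygen-labile subunit of HIF-1, which is controlled mainly through the stability of its protein. In ischemia+reperfusion its log2 level was 12.21, 12.22, 12.28 and 12.08 at 120 min, against 12.27, 12.16, 12.15 and 12.21 at 0 min. The groups overlapped, and all 20 arrays of the arm lay between 12.05 and 12.28. In ischemia it was 12.20, 12.13, 12.26 and 12.16 at 120 min, against 4, 12.07, 12.07 and 12.09 at 0 min. The value of 4 is the floor, on the outlying array of preparation 1, duplicate 1, and the other 19 arrays of the arm lay between 11.81 and 12.26, with all 4 at 120 min above the other 3 at 0 min. The change at 120 min was 0.0015 ± 0.82 in ischemia+reperfusion (SE, adjusted p = 1.000) and 2.13 ± 0.82 in ischemia (adjusted p = 0.104). The SE comes from 1 fit over all 10 groups, so the array at the floor widens it in ischemia+reperfusion too. In that arm the SD of the 2 preparations was 0.028 at 0 min and 0.023 at 120 min. Without the outlying array, the ischemia change of Hif1a was 0.11 log2 units (adjusted p = 0.221), and at the mean of the early times it was -0.029 (0.777).

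Egln1 encodes PHD2, the main oxygen sensor among the HIF prolyl hydroxylases. In ischemia+reperfusion, probe set 1389207_at had log2 levels of 10.22, 10.52, 10.51 and 10.66 at 0 min, 11.54, 11.39, 10.32 and 11.56 at 10 min, 11.09, 11.06, 11.59 and 11.67 at 30 min, 11.26, 10.90, 11.41 and 11.25 at 60 min, and 11.23, 11.12, 11.31 and 11.31 at 120 min. All but 1 of the 16 later arrays lay above every 0 min array, and the exception was the 10 min array of preparation 2, duplicate 1. In ischemia, the levels were 10.61, 11.06, 10.51 and 10.40 at 0 min, 11.50, 11.55, 11.54 and 11.69 at 10 min, 11.49, 11.52, 11.43 and 11.29 at 30 min, 11.48, 11.22, 11.40 and 11.60 at 60 min, and 11.43, 11.49, 11.35 and 11.12 at 120 min. All later arrays of ischemia lay above those of 0 min, although the lowest, 11.12 at 120 min, was close to the highest at 0 min, 11.06. The mean of the early times rose by 0.78 ± 0.17 in ischemia+reperfusion (adjusted p = 0.0389) and by 0.83 ± 0.17 in ischemia (adjusted p = 0.0413). The untested probe set 1375262_at was above the floor on 1 ischemia+reperfusion array at 120 min, at 5.45, and on 1 ischemia array at 0 min, at 4.01, so it gave no second reading of the gene.

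Egln3 encodes PHD3, a HIF prolyl hydroxylase that is itself strongly induced by hypoxia in many cell types. In ischemia+reperfusion its log2 levels were 11.70, 11.73, 11.62 and 10.87 at 0 min, 12.76, 12.52, 11.96 and 12.74 at 10 min, 12.28, 12.30, 12.80 and 12.75 at 30 min, 12.56, 12.18, 12.74 and 12.53 at 60 min, and 12.27, 12.20, 12.53 and 12.33 at 120 min. The lowest later array, 11.96, was above the highest at 0 min, 11.73, and the 0 min array at 10.87 (preparation 2, duplicate 2) lay below the other 3. In ischemia, its log2 levels were 11.95, 12.45, 11.57 and 11.68 at 0 min, 12.60, 12.56, 12.73 and 12.77 at 10 min, 12.60, 12.60, 12.68 and 12.67 at 30 min, 12.67, 12.32, 12.62 and 12.84 at 60 min, and 12.57, 12.45, 12.45 and 12.29 at 120 min. Here 12 of the 16 later arrays exceeded every 0 min array, and the 0 min array at 12.45 (preparation 1, duplicate 2) lay inside the later range. Egln3 rose by 1.03 ± 0.18 at the early mean of ischemia+reperfusion (adjusted p = 0.0169) and by 0.85 ± 0.22 at 120 min (0.0437). Without the low 0 min array of preparation 2, duplicate 2, the 120 min change of Egln3 was 0.67 and no longer passed (adjusted p = 0.0598). In ischemia the change was 0.72 ± 0.18 at the early mean (adjusted p = 0.0650) and 0.53 ± 0.22 at 120 min (0.134), and neither passed.

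Egln2 encodes PHD1, a HIF prolyl hydroxylase that, unlike Egln1 and Egln3, is not a classic HIF target. Its log2 levels were 10.46, 10.42, 10.08 and 10.52 at 120 min of ischemia+reperfusion, against 10.44, 10.47, 10.43 and 10.38 at 0 min. In ischemia they were 10.39, 10.27, 10.23 and 10.49 at 120 min, against 10.38, 10.14, 10.43 and 10.15 at 0 min. The groups overlapped in both arms. The change at 120 min was -0.060 (95% interval -0.25 to 0.13) in ischemia+reperfusion and 0.072 (-0.12 to 0.26) in ischemia. Over the 8 comparisons with 0 min the estimates for Egln2 ran from -0.15 to 0.10, with all intervals including 0, and the intervals reached no further than -0.34 and 0.29.

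P4ha1 encodes the more widely expressed catalytic subunit of collagen prolyl 4-hydroxylase, the enzyme whose product, 4-hydroxyproline, keeps the collagen triple helix stable. In ischemia+reperfusion its log2 levels were 11.32, 11.32, 10.90 and 10.87 at 0 min, 11.91, 11.89, 11.15 and 11.98 at 10 min, 11.77, 11.71, 11.80 and 11.99 at 30 min, 11.92, 11.77, 11.88 and 11.84 at 60 min, and 11.95, 12.02, 11.85 and 11.90 at 120 min. The 0 min array values fell into those of preparation 1 at 11.32 and those of preparation 2 at 10.90 and 10.87, while at 120 min all 4 lay between 11.85 and 12.02. In ischemia the levels were 11.35, 11.59, 11.07 and 10.79 at 0 min, 11.97, 12.06, 12.00 and 12.06 at 10 min, 11.89, 11.80, 11.94 and 11.96 at 30 min, 11.90, 11.75, 11.89 and 11.94 at 60 min, and 12.06, 12.10, 11.85 and 11.86 at 120 min. All 16 later ischemia arrays lay above every 0 min array, and the 10 min arrays lay between 11.97 and 12.06. P4ha1 rose by 0.83 ± 0.16 at 120 min of ischemia+reperfusion (adjusted p = 0.0174) and by 0.77 ± 0.16 at 120 min of ischemia (0.0149). In ischemia it had risen by 0.82 ± 0.16 at 10 min (adjusted p = 0.0343), which became 0.0586 without the outlying 0 min array.

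P4ha2 encodes the other widely expressed catalytic subunit and was read by a pair of probe sets. For 1372610_at the log2 levels were 11.84, 11.77, 11.99 and 11.83 at 120 min of ischemia+reperfusion, against 11.26, 11.24, 10.94 and 10.86 at 0 min. In ischemia the values of 1372610_at were 11.95, 11.89, 11.93 and 11.52 at 120 min, against 11.45, 11.55, 11.24 and 11.13 at 0 min. The groups were apart in ischemia+reperfusion and overlapped in ischemia, where the array at 11.52 is the one whose Hspa1a went against its label. For the dimmer 1375332_at the log2 levels were 7.70, 7.64, 7.92 and 7.71 at 120 min of ischemia+reperfusion, against 7.16, 6.84, 6.89 and 6.81 at 0 min. In ischemia it had 7.89, 7.92, 7.86 and 7.66 at 120 min, against 7.07, 7.45, 6.998 and 6.84 at 0 min, and the groups were apart in both arms. At 120 min P4ha2 rose by 0.78 ± 0.13 and 0.82 ± 0.18 on the probe sets 1372610_at and 1375332_at in ischemia+reperfusion (adjusted p = 0.0105 and 0.0256). In ischemia it rose by 0.48 ± 0.13 and 0.75 ± 0.18 (adjusted p = 0.0322 and 0.0235). The ischemia call of P4ha2 1372610_at at 120 min ended without the 120 min array of preparation 2, duplicate 1 (0.38, adjusted p = 0.109), and without the 120 min arrays that went against their labels the change was 0.58 (0.0119). The probe sets gave the same direction at every time in both arms, but 1375332_at did not pass at 60 min of ischemia+reperfusion (0.46 ± 0.18, adjusted p = 0.158), where 1372610_at did (0.59 ± 0.13, 0.0295).

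Plod1 encodes a lysyl hydroxylase that acts on the helical part of collagen. Its log2 levels were 11.25, 11.11, 11.33 and 11.27 at 120 min of ischemia+reperfusion, against 10.51, 10.40, 10.15 and 10.31 at 0 min. In ischemia they were 11.25, 11.21, 11.19 and 10.92 at 120 min, against 10.68, 10.60, 10.19 and 9.98 at 0 min. The 120 min arrays lay above the 0 min arrays in both arms. Plod1 rose by 0.90 ± 0.19 at 120 min of ischemia+reperfusion (adjusted p = 0.0212) and by 0.78 ± 0.19 at 120 min of ischemia (0.0237). In ischemia+reperfusion its group means stood at 10.34 at 0 min, 10.88 at 10 min, 10.94 at 30 min, 11.02 at 60 min and 11.24 at 120 min. The difference between 120 and 10 min was 0.37 log2 units (95% interval -0.048 to 0.78, adjusted p = 0.299) and did not pass.

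Plod2 encodes the lysyl hydroxylase of the collagen telopeptides, which directs cross-linking. Its log2 levels were 12.39, 12.38, 12.49 and 12.13 at 120 min of ischemia+reperfusion, against 12.19, 12.14, 11.86 and 11.85 at 0 min. In ischemia they were 12.38, 12.42, 12.41 and 12.18 at 120 min, against 12.04, 12.15, 11.78 and 11.67 at 0 min. The lowest 120 min array fell below the highest 0 min array in ischemia+reperfusion and lay just above it in ischemia. Plod2 rose by 0.34 ± 0.085 (adjusted p = 0.0383) and 0.43 ± 0.085 (0.0117) at 120 min of the 2 arms in that order, the smallest changes among the called probe sets. The ischemia+reperfusion call of Plod2 ended without the 120 min array of preparation 2, duplicate 1, whose Hspa1a went against its label (0.25, adjusted p = 0.105). Across the 8 comparisons with 0 min its changes ran from 0.22 to 0.43.

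Kdm3a encodes a demethylase of histone H3 and is a known hypoxia-induced gene. In ischemia+reperfusion its log2 levels were 9.05, 8.99, 9.08 and 9.25 at 0 min, 10.29, 10.09, 9.28 and 10.23 at 10 min, 9.92, 9.71, 10.32 and 10.28 at 30 min, 10.18, 9.43, 10.32 and 9.81 at 60 min, and 9.67, 9.82, 9.66 and 9.64 at 120 min. All 16 later arrays lay above the 0 min arrays, the 10 min array at 9.28 only just, and the spread within the 10, 30 and 60 min groups was wide. In ischemia the levels were 9.06, 9.05, 9.03 and 8.93 at 0 min, 9.88, 9.68, 9.78 and 9.67 at 10 min, 9.80, 9.71, 9.55 and 9.61 at 30 min, 9.54, 9.44, 9.56 and 9.62 at 60 min, and 9.74, 9.87, 9.62 and 9.79 at 120 min. All later arrays were well clear of 0 min there. Kdm3a rose by 0.97 ± 0.17 at 30 min (adjusted p = 0.0229) and 0.84 ± 0.17 at 60 min (0.0221) of ischemia+reperfusion. It rose by 0.74 ± 0.17 at 10 min (adjusted p = 0.0488) and 0.74 ± 0.17 at 120 min (0.0189) of ischemia. At 60 min of ischemia+reperfusion, Kdm3a did not pass without duplicate 1 of preparation 1 (0.65, adjusted p = 0.0992). At 10 min of ischemia it did not pass without any 1 of 4 arrays, duplicate 1 of preparation 1 and duplicate 2 of preparation 2 at 0 min and the same duplicates at 10 min, with adjusted p up to 0.0557. At the early mean the rise was 0.89 ± 0.14 in ischemia+reperfusion (adjusted p = 0.0073), the smallest adjusted p of any member in any comparison, and 0.63 ± 0.14 in ischemia (0.0425).

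Set against the spread of the preparations, the order of the times after 0 min was not resolved. The fitted difference between 120 and 10 min passed for 0 of the 10 probe sets in ischemia+reperfusion, where 3.09% of all probe sets passed, and for 0 in ischemia, where 0.698% passed. At an unadjusted p under 0.05 the counts were 1 in ischemia+reperfusion, against 21.1% of all probe sets, and 0 in ischemia, against 18.2%. The 1 was P4ha2 1372610_at, with a difference of 0.33 (95% interval 0.048 to 0.61, adjusted p = 0.169). Kdm3a had group means of 9.09 ± 0.10 at 0 min, 9.97 ± 0.30 at 10 min, 10.06 ± 0.34 at 30 min, 9.93 ± 0.18 at 60 min and 9.70 ± 0.065 at 120 min in ischemia+reperfusion (SD, n = 2 preparations). Its difference of 120 from 10 min, -0.27 (95% interval -0.64 to 0.089), was within that spread.

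The 2 arms were compared at equal time. No member differed between them by the test at any time, but a p that misses the threshold does not show that the arms were alike, and intervals other than those of Hif1a reached as far as -0.93 (Egln3 at 0 min). Ischemia+reperfusion against ischemia gave 0 of 10 called at 0 min (0.333% of all probe sets called in either direction), 0 at 10 min (0% of all), 0 at 30 min (0.532%), 0 at 60 min (5.38%) and 0 at 120 min (0% of all). At an unadjusted p under 0.05 the counts were 1, 1, 2, 1 and 0 of 10 at these times, against 18.2%, 9.99%, 15.6%, 24.1% and 7.16% of all probe sets, and the 1 at 0 min was Hif1a with its array at the floor. Limma's moderated F test of the 4 interaction terms called 0 members and 0.00537% of all probe sets (at an unadjusted p under 0.05, 0 members and 11.3% of all), with a smallest adjusted p of 0.677, for Kdm3a. With arrays as samples these 6 counts were also 0.

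At 0 min, Egln3 was -0.43 log2 units in ischemia+reperfusion minus ischemia (95% interval -0.93 to 0.056). Kdm3a was higher in ischemia+reperfusion by 0.39 at 30 min (0.029 to 0.76, adjusted p = 0.285) and by 0.39 at 60 min (0.031 to 0.76, 0.174), neither of which passed. P4ha2 1372610_at had differences of -0.31 at 10 min (-0.59 to -0.032, adjusted p = 0.460) and -0.31 at 30 min (-0.58 to -0.026, 0.277). At 120 min the differences of all 10 ran from -0.11 to 0.10, with adjusted p of 0.979 or more. This comparison holds the 120 min arrays whose Hspa1a went against their labels. Without them, 408 of all probe sets were called higher and 259 lower at 120 min, against 0 with all arrays. The members' count stayed at 0. The difference in Hif1a at 0 min, 2.14, came from the array at the floor.

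**Figure D3:**
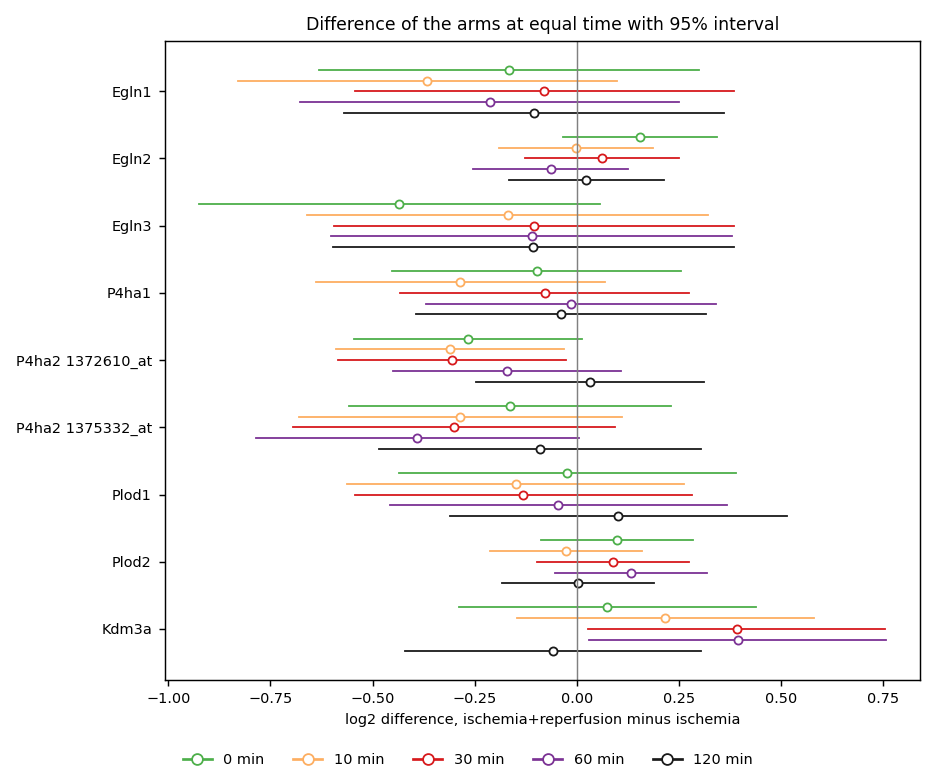
Log2 difference between the arms, ischemia+reperfusion minus ischemia, at 0, 10, 30, 60 and 120 min, with 95% intervals, for each tested probe set except Hif1a. All points are open, as none passed an adjusted p of 0.05; the intervals of Kdm3a at 30 and 60 min lie above 0 and those of P4ha2 1372610_at at 10 and 30 min below it.

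For the genes that stood higher after 0 min, the 2 cell preparations gave the same direction but not always the same size. At the early mean of ischemia+reperfusion, Egln3 changed by 0.72 in preparation 1 and 1.34 in preparation 2, and P4ha1 by 0.51 and 0.89. In ischemia, Egln3 changed by 0.36 in preparation 1 and 1.09 in preparation 2, P4ha1 by 0.42 and 1.04, and Plod1 by 0.42 and 0.96. Kdm3a was alike in both, at 0.92 and 0.87 in ischemia+reperfusion and at 0.62 and 0.65 in ischemia. The 0 min level of P4ha1 was lower in preparation 2, with 11.32 and 10.88 in preparations 1 and 2 of ischemia+reperfusion and at 11.47 and 10.93 in those of ischemia. At 120 min P4ha1 stood at 11.98 and 11.87 in ischemia+reperfusion and at 12.08 and 11.85 in ischemia. The difference between the preparations was not tested.

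**Figure D4:**
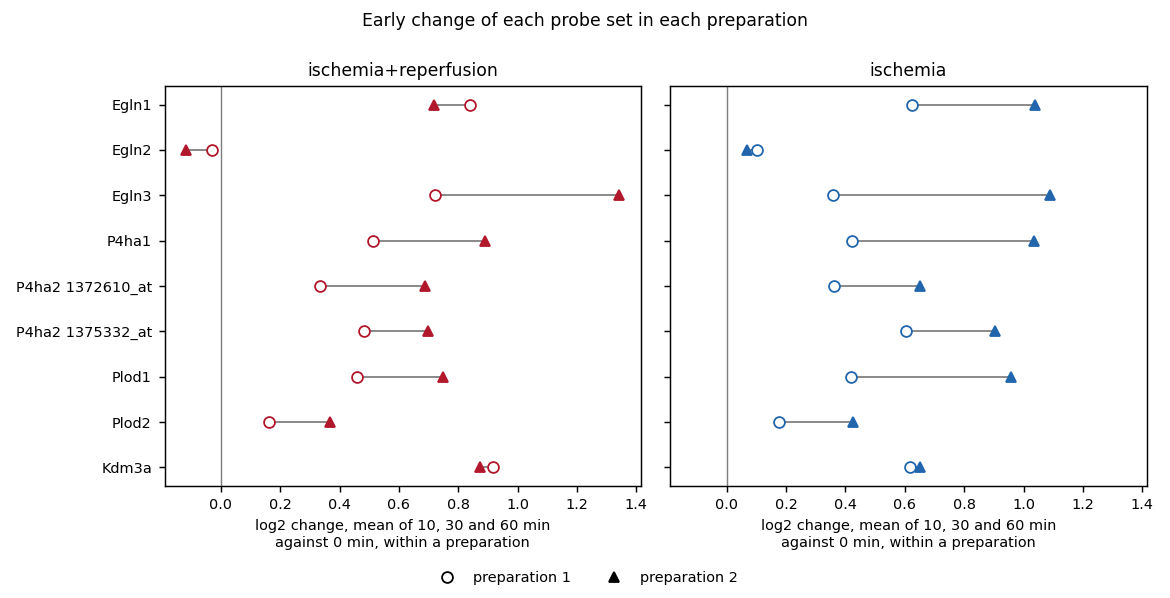
Log2 change of the mean of 10, 30 and 60 min against 0 min within preparation 1 (open circles) and preparation 2 (filled triangles), for ischemia+reperfusion (left) and ischemia (right), without Hif1a. Every pair except Egln2 in ischemia+reperfusion lies above 0 in both preparations; the gap between preparations is widest for Egln3, at 0.36 and 1.09 in ischemia, and small for Kdm3a.

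The rest of the pathway moved in part. Among HIF targets outside the members, 30 of 33 genes on the array were tested. In ischemia+reperfusion, 12 of the 30 rose at 120 min, 0 fell and 18 did not pass, with a median change of 0.67. At 10, 30 and 60 min the counts were 0, 6 and 11. The 4 largest rises were those of Ak4, a mitochondrial adenylate kinase (2.64 ± 0.65), Hmox1, which degrades heme (1.79 ± 0.32), Ndrg1, a hypoxia-induced growth regulator (1.54 ± 0.37), and Ddit4, an inhibitor of mTORC1 (1.31 ± 0.27). In ischemia, 13 of the 30 rose, 0 fell and 17 did not pass, with a median of 0.70, after 3, 1 and 1 at 10, 30 and 60 min. Ak4 (4.002 ± 0.65), Ankrd37, an ankyrin repeat protein (3.20 ± 0.38), Ddit4 (2.50 ± 0.27) and Hilpda, a lipid droplet protein (2.17 ± 0.35), rose most. The members' medians of 0.77 and 0.72 at 120 min of ischemia+reperfusion and ischemia stood beside those of this list. Both include Hif1a, which has an array at the floor in ischemia. Of all probe sets tested, 3.5% were called higher at 120 min of ischemia+reperfusion and 6.45% at 120 min of ischemia.

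The machinery that acts with HIF was read next. At 120 min of ischemia+reperfusion, 3.5% of all probe sets were called higher and 3.68% lower, and in ischemia 6.45% and 6.48%. Of 16 tested genes for other HIF subunits, the VHL ligase and cofactors (17 on the array), 1 was called higher at 120 min of ischemia+reperfusion and 0 lower, with a median change of -0.053. It was Cited2, a HIF target that competes for the coactivator p300 (0.52 ± 0.10, adjusted p = 0.0179). In ischemia 0 were called higher and 1 lower at 120 min, Cited4, of the same family (-0.44 ± 0.12, adjusted p = 0.0378). Vhl changed by 0.036 ± 0.10 in ischemia+reperfusion and 0.062 ± 0.10 in ischemia, and Epas1, the HIF-2 alpha subunit, by -0.064 ± 0.092 and 0.040 ± 0.092, and none of these passed.

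Among the other collagen-modifying enzymes, chaperones and collagens, 18 of 19 genes on the array were tested. In ischemia+reperfusion 2 rose at 120 min, Loxl2 (0.96 ± 0.20) and Lox (0.75 ± 0.16), both of which cross-link collagen outside the cell, 0 fell and 16 did not pass. In ischemia 6 rose, 0 fell and 12 did not pass. Of those called, Lox (0.81 ± 0.16), Loxl2 (0.78 ± 0.20), the lysyl hydroxylase Plod3 (0.59 ± 0.12) and the prolyl 3-hydroxylase P3h3 (0.51 ± 0.15) rose most. The largest change on the list, 1.34, did not pass. The median change was 0.13 in ischemia+reperfusion and 0.27 in ischemia. Of all probe sets, 3.5% and 6.45% were called higher at 120 min of these arms in that order. At 10 min, 0 of the 18 were called in either arm by limma, where 0.0215% of all were called higher in ischemia+reperfusion and 1.14% in ischemia.

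Other dioxygenases that use 2-oxoglutarate and iron did not move as a block. Of 33 tested (36 on the array), 3 rose and 2 fell at 120 min of ischemia+reperfusion, with a median of 0.10, and 4 rose and 1 fell in ischemia, with a median of 0.044. Over all probe sets, 3.5% were called higher and 3.68% lower in ischemia+reperfusion, and 6.45% and 6.48% in ischemia. In ischemia+reperfusion Kdm6b, an H3 demethylase (0.56 ± 0.13), and Phyhd1 (0.35 ± 0.081) rose, and Jmjd8 (-0.76 ± 0.20) and Riox2, a ribosomal oxygenase (-0.67 ± 0.16), fell. In ischemia Bbox1, which makes carnitine (0.85 ± 0.17), Kdm6b (0.51 ± 0.13) and Phyhd1 (0.31 ± 0.081) rose, and Tet1, a DNA methylcytosine dioxygenase (-0.63 ± 0.14), fell.

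**Figure D5:**
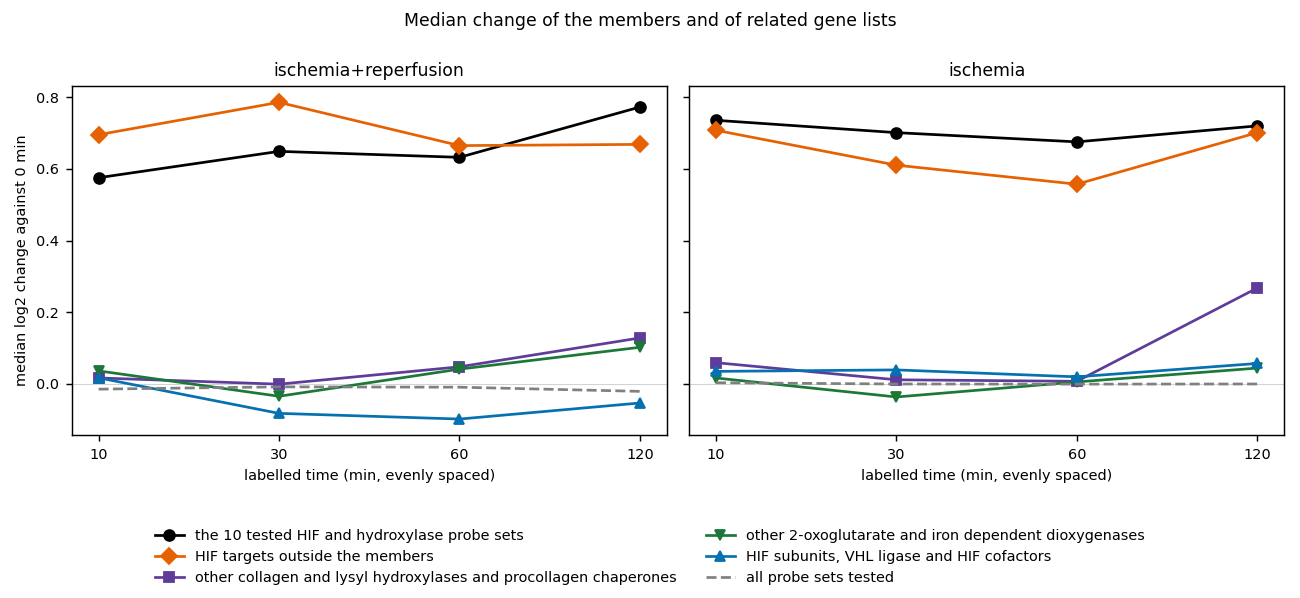
Median log2 change against 0 min at 10, 30, 60 and 120 min (evenly spaced on the axis) of the 10 tested HIF and hydroxylase probe sets and of 4 related gene lists, in ischemia+reperfusion (left) and ischemia (right), with all tested probe sets as a dashed line. The members and the HIF targets run between 0.56 and 0.79, and the other lists stay near the dashed line, save the collagen list at 120 min of ischemia (0.27). The members' line includes Hif1a, which has an array at the floor in ischemia.

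Markers of other cells were read beside these changes. At 10 min, 0 of 9 fibroblast, 0 of 5 endothelial, 0 of 8 macrophage and leukocyte and 0 of 4 smooth muscle markers tested were called by limma in either arm. At 120 min of ischemia, 1 of 9 fibroblast markers (Pdgfra, 0.45) and 2 of 5 endothelial markers (Pecam1, 1.04, and Tek, 0.33) were called higher, as were 6.45% of all probe sets. The summed fibroblast intensity ran from 51400 to 53500 over the 120 min ischemia arrays, against 44800 to 50400 at 0 min, and the endothelial sum from 2320 to 2950, against 1600 to 2200. In ischemia+reperfusion, 0 fibroblast and 0 endothelial markers were called at 120 min, 1 of 7 cardiomyocyte markers was called higher (Myh7, 0.32), and Mrc1, a macrophage marker, fell (-0.69). Of all probe sets, 3.5% were called higher and 3.68% lower in that comparison. There the fibroblast sum ran from 50100 to 55700, against 47400 to 56600 at 0 min, and the endothelial sum from 2090 to 2780, against 1680 to 2160. The part of these markers in the 120 min changes of P4ha1, P4ha2, Plod1 and Plod2 was not tested. The cardiomyocyte sum ran from 68200 to 70100 at 120 min of ischemia+reperfusion, against 64500 to 66900 at 0 min, and from 68500 to 71100, against 61300 to 70800, in ischemia.

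The 7 genes that stood higher after 0 min varied together. Over the 20 means of a group and preparation, each centred on its preparation, the 21 pairs of their brightest probe sets had correlations from 0.56 to 0.95, with a median of 0.88. The values share their arrays, their normalization and the same step after 0 min, so they are a description. Egln2 correlated by -0.26 to -0.064 with them. Hif1a correlated by 0.073 to 0.40, but without the mean of 8.04 that holds the array at the floor the correlations of its other 19 values ran from -0.32 to 0.23. Among all other genes, those most like Egln3 were Slc16a3, a lactate exporter (0.976), the mitophagy receptor Bnip3 (0.953) and the glycolytic enzyme Tpi1 (0.953), all 3 of which are on the list of HIF targets. Those most like P4ha1 were the glycolytic enzyme Eno2 (0.972), the glycogen phosphorylase Pygl (0.9695) and Slc16a3 (0.969). Kdm3a was most like G0s2, an inhibitor of triglyceride lipase (0.923), Zfp395 (0.914) and Rgs4, a regulator of G protein signalling (0.911).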

How the data were processed

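The authors deposited 1 table of probe set intensity values on a linear scale for 40 arrays, from -1725 to 17404, of which 15.8% were negative. The sources used here name neither the algorithm nor the scaling, and per the labels' protocols biotin-labelled cRNA was hybridised. The array number limits the precision, with a median SE of a change of 0.118 log2 units.

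Intensities were quantile-normalized, floored at 0 and transformed to log2(intensity + 16). The 18625 probe sets with a mean above the 40th percentile (6.48) were tested, and 0.0656% of their values lay at the floor. Duplicates of a preparation were averaged to 20 values. They were fitted over 10 groups in limma 3.58.1 (R 4.3.3) with preparation as a block, on 9 residual degrees of freedom. P-values were adjusted by Benjamini-Hochberg per comparison and called under 0.05. The labels number the same 2 preparations in every group. Deviations of same-numbered samples had a median correlation of 0.18 over 45 pairs of groups (from -0.18 to 0.53, 34 above 0.1), and no arrays were identical. The procedure was also run on simulated arrays, drawn independently without preparation effects or outlying arrays. That run does not show how the procedure handles those features.

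All probe sets of the members are named. From each context list, at most 4 called genes with the largest 120 min change per arm are named, and the 3 genes most correlated with Egln3, P4ha1 and Kdm3a. Members and lists were chosen with earlier results of these data known. Alternatives covered scale, pseudocount, filter, block, arrays as samples and arrays left out. The count of probe sets with separated arrays without the 5 doubtful arrays was chosen after seeing the data.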

Additional observations from a re-analysis of the deposited data

Results flagged for a closer look

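In 13 of 110 groups of 4 arrays, the highest or lowest array stood apart from the other 3 by Dixon's criterion, which chance meets in about 1 in 20 groups. That rate does not hold for the groups of the untested Egln1 probe set 1375262_at, which had 3 or 4 arrays at the floor. Hif1a was at 4 on the outlying ischemia array at 0 min (preparation 1, duplicate 1), against 12.073 to 12.09 on the others, and at 12.186 on 1 ischemia+reperfusion array at 60 min (preparation 2, duplicate 2), against 12.234 to 12.243. At 10 min of ischemia+reperfusion, duplicate 1 of preparation 2 stood low for 3 probe sets. There Egln1 (1389207_at) was at 10.322, against 11.394 to 11.561, P4ha1 at 11.153, against 11.894 to 11.985, and P4ha2 (1375332_at) at 6.8374, against 7.7294 to 7.8273. The untested Egln1 probe set 1375262_at was at 5.4454 on 1 ischemia+reperfusion array at 120 min (preparation 2, duplicate 1) and at 4.0133 on 1 ischemia array at 0 min (preparation 2, duplicate 2), with the others at 4. Egln3 was at 10.872 on 1 ischemia+reperfusion array at 0 min (preparation 2, duplicate 2), against 11.619 to 11.727. P4ha2 (1372610_at) was at 11.52 on the 120 min ischemia array of preparation 2, duplicate 2, against 11.887 to 11.953. Egln2 was at 10.514 on 1 ischemia+reperfusion array at 60 min (preparation 1, duplicate 2), against 10.167 to 10.226, and at 10.162 on 1 ischemia array at 10 min (preparation 1, duplicate 1), against 10.418 to 10.458. Kdm3a was at 9.8151 on 1 ischemia+reperfusion array at 120 min (preparation 1, duplicate 2), against 9.6431 to 9.6694, and at 8.9307 on 1 ischemia array at 0 min (preparation 2, duplicate 2), against 9.0343 to 9.0557. Why these arrays stood apart was not tested.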

How the results depend on the processing

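The counts of called HIF and hydroxylase probe sets sat near the threshold, while directions did not turn. The changes of Egln1, Egln3, P4ha1, P4ha2, Plod1, Plod2 and Kdm3a against 0 min were positive under all 10 alternatives and in every leave-one-out fit run. Without the preparation block, that is, without the pairing of samples by preparation, the count was 0 at 10 min of ischemia, against 2 with it, and 3 at the early mean of ischemia, against 6, and no other count moved beyond 1.5 times. Of all probe sets, 95 were then called higher at 10 min of ischemia, against 212, and 87 at its early mean, against 209. On the deposited scale the members' count was 0 at 30 min, 0 at 60 min, 1 at 120 min and 3 at the early mean of ischemia+reperfusion, and 0 at 10 min, 1 at 120 min and 0 at the early mean of ischemia. Over all probe sets that scale gave 28 higher calls at 30 min and 138 at 120 min of ischemia+reperfusion, and 42 at 10 min of ischemia. There the median of all probe sets fell by 0.23 at 30 min and 0.17 at 60 min of ischemia, with 4 higher and 12 lower calls at 30 min, against 13 and 5, and 1 and 2 at 60 min, against 16 and 8. The same scale gave 28 higher and 1 lower call at 10 min of ischemia+reperfusion, against 4 and 3 (4 and 1 with median centring), 30 and 37 at the early mean of ischemia, against 209 and 120, and 127 and 47 at that of ischemia+reperfusion, against 305 and 291. At 30 min of ischemia, median centring gave 11 and 7. With median-centred arrays the members' count was 2 at 60 min of ischemia+reperfusion and 0 at 10 min of ischemia, where 285 and 144 of all probe sets were called higher. A pseudocount of 4 gave 1 at 10 min of ischemia, where 201 of all probe sets were called higher. With no filter on dim probe sets, which adds probe sets to the adjustment, the count was 0 at 30 min and 1 at 60 min of ischemia+reperfusion, and 0 at 10 min and 0 at the early mean of ischemia. Of the 31042 probe sets, 52, 275, 169 and 102 were called higher in these comparisons in turn. With arrays as samples (correlation of duplicates 0.078), the members' count was 5, 8 and 7 at 10, 30 and 60 min, 8 at the early mean and 1 for 120 against 10 min of ischemia+reperfusion, and 8, 8 and 5 at 10, 30 and 60 min of ischemia. In ischemia+reperfusion, 1.04%, 1.95% and 5.24% of all probe sets were then called higher at 10, 30 and 60 min. The early mean had 3.88% higher, and 120 against 10 min had 3.92% higher and 4.67% lower. In ischemia, 3.68%, 0.999% and 1.02% were higher at 10, 30 and 60 min. Without the outlying 0 min array the members' count was 0 at 10 min and 0 at the early mean of ischemia, where 128 and 76 of all were called higher. Without the pair of 120 min arrays it was 1 at 10 min of ischemia, where 173 of all were called higher. Without all 5 doubtful arrays it was 7 at 10 min of ischemia+reperfusion and 1 at 10 min of ischemia, where 227 and 131 of all were called higher. In that setting 6 member probe sets, against 2, had all later ischemia+reperfusion arrays above those of 0 min, as had 1.78% of all, against 0.66%. Leaving out each array in turn gave counts from 0 to 6 at 10 min, 1 to 7 at 60 min, 5 to 7 at 120 min and 0 to 8 at the early mean of ischemia+reperfusion, and 1 throughout at 30 min. In ischemia it gave 0 to 6 at 10 min, 5 to 7 at 120 min and 0 to 7 at the early mean, and 0 throughout at 30 and 60 min. The share of all probe sets called higher moved too in these fits. At 10 min it ran from 0.00537% to 1.18% in ischemia+reperfusion and from 0.462% to 1.99% in ischemia. At the early mean it ran from 0.435% to 2.47% and from 0.408% to 2.27% in the same order. The comparisons of the arms, of 120 with 10 min and of the interaction stayed at 0 in these fits. The cause of each move was not tested, beyond the changes that fewer arrays or more probe sets bring by construction.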
